A study of Saccharomyces cerevisiae with 16 samples.

Results

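Chromosome XI of budding yeast carried 1756 of the 30753 H3K4me3 peaks in 8 peak lists, and 30113 of the peaks lay on the 16 nuclear chromosomes. Its peaks were chosen by position alone, as every listed peak whose chromosome is XI, and numbered 202 to 232 per library. The host was BY4741, a haploid laboratory strain of mating type a. Every strain also held a synthetic version of the human HPRT1 locus, unreversed (HPRT1) or reversed (HPRT1R). A yeast artificial chromosome (YAC) carried that DNA in some strains, and in the others it was inserted into chromosome XI, which makes chromosome XI the host of the insert in the integrated strains and an unaltered chromosome in the YAC strains, as far as the labels tell. The insertion site on chromosome XI is not given in the sources used here. The 4 groups of 2 libraries were HPRT1 YAC, HPRT1 integrated, HPRT1R YAC and HPRT1R integrated. No strain without synthetic DNA was among them.

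The medium of YAC strains was SC-Leu, which lacks leucine, and that of integrated strains was YPD, a rich medium. All cultures grew at 30 °C from an optical density of 0.1 for 6 hours to about 0.6. Configuration and medium always changed together, so their parts in any difference cannot be told apart. The assay was CUT&RUN, in which an antibody tethers a nuclease that releases the bound chromatin, with 0.5 µg of antibody. The sample titles call it ChIP. The labels of HPRT1 YAC replicate 2 conflict, since HPRT1R stands in the cell line entry and HPRT1 in the title, source name and genotype. The labels do not say whether the replicates were separate cultures, so p-values measure the spread between these libraries, which may be technical. The 8 IgG control samples were not analysed here.

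H3K4me3 is laid down by Set1 within the COMPASS complex, which travels with RNA polymerase II early in transcription. In yeast the mark lies over the 5′ ends of transcribed protein-coding genes and is low over silent genes, including those near telomeres. A peak over the start of a gene is therefore read here as a mark, not as a level of transcription.

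Chromosome XI spanned 663289 bp, taken to the end of its last annotated gene, and held 318 of 6002 nuclear protein-coding genes. A gene was called marked when any base from 200 bp before to 500 bp after its annotated start lay under a peak. The number of peaks on the chromosome was 229 and 228 in the HPRT1 YAC libraries, 217 and 204 in HPRT1 integrated, 202 and 225 in HPRT1R YAC, and 232 and 219 in HPRT1R integrated. These were 5.71 to 5.98% of the native peaks of each library. Read totals cannot be taken from peak lists, but the pileup at the median summit on the chromosome was 184 to 203 reads, where the median pileup expected by the caller was 77.7 to 98.9. That gives a counting error of 7.02 to 7.37% on 1 summit.

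Chromosome XI carried more peaks per length and had a larger share of marked genes than the other chromosomes in every library. Its density was 3.45 and 3.44 peaks per 10 kb in the HPRT1 YAC libraries, 3.27 and 3.08 in HPRT1 integrated, 3.05 and 3.39 in HPRT1R YAC, and 3.50 and 3.30 in HPRT1R integrated. The mean was 3.31 ± 0.171 (SD, n = 8), against 3.11 ± 0.167 (SD, n = 8) on the 15 other chromosomes. The difference of 0.197 (95% interval 0.152 to 0.239) was positive in 8 of 8 libraries (exact two-sided sign-flip permutation test, p = 0.00781, adjusted over 14 tests p = 0.0219). This p is the smallest that 8 libraries can give. The libraries re-measure 1 chromosome, so the test speaks to repeatability and not to chromosomes in general.

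The share of genes marked was 78.6 and 84.0% in the HPRT1 YAC libraries, 83.3 and 82.4% in HPRT1 integrated, 82.4 and 82.1% in HPRT1R YAC, and 81.1 and 81.8% in HPRT1R integrated. The mean was 82.0% ± 1.61 (SD, n = 8), against 77.2% ± 1.71 (SD, n = 8) elsewhere. The difference was 4.72 percentage points (95% interval 3.72 to 5.76; exact sign-flip permutation test, p = 0.00781, adjusted p = 0.0219), with chromosome XI higher in 8 of 8 libraries. Bases under peaks made up 25.1% ± 1.07 (SD, n = 8) of chromosome XI and 24.2% ± 1.19 (SD, n = 8) of the others. That difference of 0.861 percentage points (95% interval 0.449 to 1.27; exact sign-flip permutation test, p = 0.00781, adjusted p = 0.0219) was also positive in 8 of 8 libraries. It was 1.60 points when the outer 30 kb of every chromosome were left out.

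Peaks of chromosome XI were not distinguishably wider. Their median width was 634 bp ± 49.7 (SD, n = 8), against 618 bp ± 51.1 (SD, n = 8). The difference of 15.9 bp (95% interval -3.78 to 35.4) did not pass the test (exact sign-flip permutation test, p = 0.0938, adjusted p = 0.188). Single peaks were 165 to 185 bp wide at the narrowest of each library and 2315 to 3804 bp at the widest, and 17 to 28 per library reached 1500 bp. Neighbouring summits were a median of 2093 to 2583 bp apart.

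Chromosome XI ranked 1 of 16 by mean density and by mean share of marked genes, and 5 of 16 by coverage. Its lead was small beside the spread between libraries. The next chromosomes by marked share, IV and XIII, stood at 81.2% ± 2.63 (SD, n = 8) and 81.1% ± 1.18 (SD, n = 8), and XIV followed in density at 3.28 ± 0.165 (SD, n = 8). Library by library, chromosome XI ranked between 1 and 5 in density and between 1 and 3 in marked share. The chromosome was not richer in genes, with 4.79 protein-coding genes per 10 kb against 4.99 elsewhere. Its peaks per gene were 0.690 ± 0.0357 (SD, n = 8), against 0.624 ± 0.0334 (SD, n = 8).

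**Figure D1:**
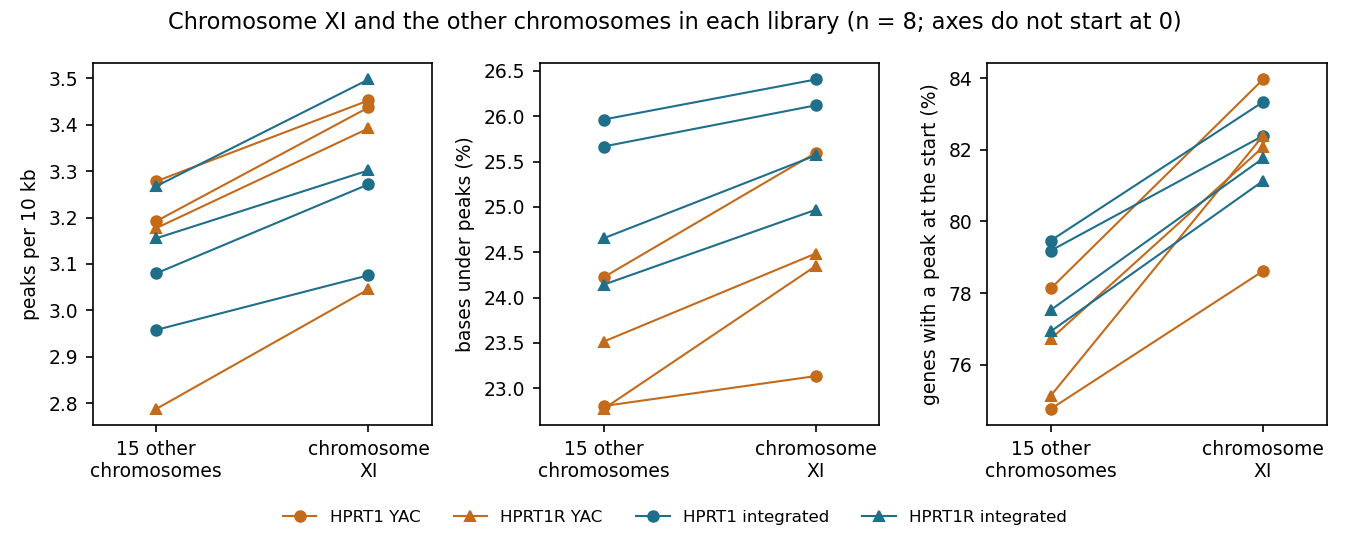
Peak density (peaks per 10 kb), coverage (% of bases under peaks) and share of protein-coding genes with a peak at the start (%) on the 15 other chromosomes and on chromosome XI. Each line is 1 library, colour gives the configuration and shape the sequence, and axes do not start at 0. All 8 lines rise in each panel.

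Most peaks touched the window of an annotated gene start. On chromosome XI, 91.9% ± 1.18 (SD, n = 8) of peaks touched a start window, against 92.2% ± 1.15 (SD, n = 8) elsewhere. The share that randomly placed peaks would reach was not computed. The median summit was 56.6 bp ± 22.6 (SD, n = 8) downstream of the nearest start, and elsewhere 59.8 bp ± 21.6 (SD, n = 8). Genes marked in all 8 libraries numbered 227 of 318, or 71.4%, beside 66.5% over all native genes. Genes marked in none numbered 39, or 12.3%, beside 14.8% over all native genes. The other 52 were marked in 1 to 7 libraries, 24 of them in 7. These counts depend on the rule: with a summit required in the 500 bp after the start, 54 genes counted as marked in every library and 97 as unmarked throughout. The always-marked genes had stronger peaks, with a median fold percentile of 66.1 against 24.3 for those marked in 1 to 7. This percentile is the place of a gene's peak, by the authors' fold over the caller's expectation, among the native peaks of its own list. Calls and folds come from the same lists, and a weak peak is the more easily missed, so the grouping partly sets this contrast. Genes marked in none had a median length of 1647 bp, and genes marked in all 8 a median of 1179 bp.

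Merging the peaks of all libraries gave 219 regions on chromosome XI. Of these, 161 held a peak in all 8 libraries, or 73.5% beside 71% over the native genome, and 11 in 1 library only, or 5.02% beside 5.68%. The shared regions had a median width of 1042 bp, and the single-library regions 230 bp. HPRT1R YAC replicate 1 contributed 5 of the 11. Of the 161 shared regions, 88 reached 1 gene start, 55 reached 2, 13 reached 3, 2 reached 4 and 3 reached none. A shared region therefore often reached neighbouring genes, with 2 or more starts in 70 regions. Such a region is a union over libraries and can hold more than 1 peak of a library, as at KKQ8 and MRP49. The 70 regions are thus not a count of single peaks that span several starts. Of the 3 shared regions with no gene start window, 1 lay at the 3′ end of JEN1, from 23555 to 24104 (coordinates are of sacCer3 throughout). The others overlapped no annotated gene, from 513863 to 514476 and from 650434 to 650817.

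The mark was spread unevenly along the chromosome. The outer 30 kb at each end had few peaks, and the left arm carried more than the right. Coverage of the ends was 3.68% ± 0.793 (SD, n = 8), against 27.2% ± 1.14 (SD, n = 8) in the interior. The difference was -23.5 percentage points (95% interval -24.4 to -22.6), and the ends were the lower in all 8 (exact sign-flip permutation test, p = 0.00781, adjusted p = 0.0219). The left end held 2 to 4 peaks per library and the right end 1 to 3. On the 15 other chromosomes, the same measure of the ends ran from 1.10 to 22.5%, with a median of 7.50%.

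Of the 17 genes that start within 30 kb of an end, 13 were marked in no library, and 226 of the 301 interior genes were marked in all 8. The first genes from the left telomere were PAU16, a member of the seripauperin family, and YKL222C, marked in 0 and 1 libraries. MCH2, a relative of monocarboxylate transporters, FRE2, an iron and copper reductase, COS9, of a subtelomeric family, and SRY1, a hydroxyaspartate dehydratase, followed and were marked in none. The first start marked in every library was that of URA1, the dihydroorotate dehydrogenase of pyrimidine synthesis, from 25215 to 26159, with a fold of 2.07 ± 0.183 (SD, n = 8). At the other end SIR1, a silencing protein of the mating-type loci, was marked in 7 libraries. FLO10, a flocculin, NFT1, YKR104W, VBA5 and GEX2, a glutathione exchanger, were marked in none. Several of these belong to families with near-identical copies on other chromosomes. How reads shared among copies were treated is not given in the sources used here, so an unmarked start of that kind is uncertain.

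Left-arm coverage was 26.4% ± 1.29 (SD, n = 8), and right-arm coverage 22.4% ± 0.803 (SD, n = 8). The right arm was lower by 4.05 points in 8 of 8 libraries, the difference, right minus left, being -4.05 (95% interval -4.78 to -3.29; exact sign-flip permutation test, p = 0.00781, adjusted p = 0.0219). The right arm is the shorter, 223.3 kb against 440.0 kb, so its end takes a larger part of it. Without the outer 30 kb, the arms stood at 28.0% ± 1.36 (SD, n = 8) and 25.5% ± 0.817 (SD, n = 8), a difference of -2.54 points.

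The centromere lies in the 1222 bp between MET14 and VPS1. The 3 nearest genes on each side were marked in all 8 libraries. To the left these were MRP17, a mitochondrial ribosomal protein, DID4, of the ESCRT-III complex, and MET14, adenylylsulfate kinase. To the right they were VPS1, a dynamin-like GTPase, PAP1, the poly(A) polymerase, and OSH6, a lipid transfer protein. MET14 had the lowest fold of them, at 1.77 ± 0.123 (SD, n = 8), and VPS1 and PAP1, which share a peak, had 2.56 ± 0.234 (SD, n = 8). A shared region ended at 439866, inside the gap, and the next began at 442342.

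In 30 kb windows the interior ranged widely. The window from 150 to 180 kb had the highest coverage in 7 of 8 libraries, with values between 33.2 and 39.7%. In HPRT1R integrated replicate 2 the window from 270 to 300 kb, at 33.7%, was above it. Its left neighbour, from 120 to 150 kb, ranged between 13.4 and 23.1% and was the lowest interior window in 6 of 8 libraries.

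**Figure D2:**
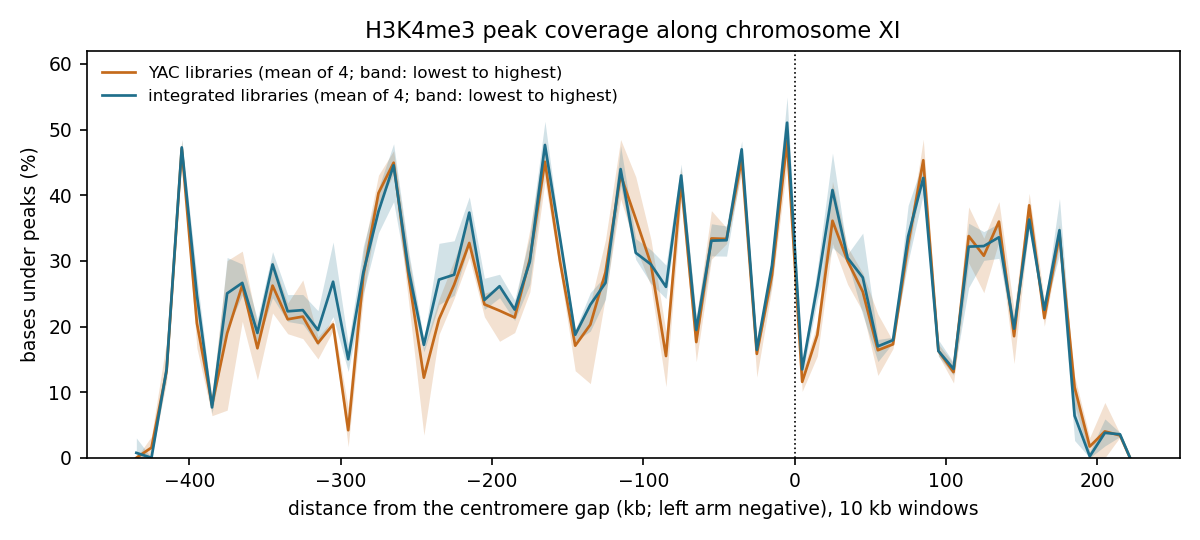
Share of bases under peaks (%) in 10 kb windows along chromosome XI, by distance from the centromere gap (kb). Lines are means of 4 libraries of a configuration and bands run from the lowest to the highest library. Both configurations follow the same profile and drop at the ends, and the lines are furthest apart in the left arm.

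The longest stretches with no peak in any library lay both near the ends and in the interior. Near the ends, 12907 bp from 5775 to 18681 covered MCH2, FRE2, COS9 and SRY1, and 12472 bp from 650818 to the last annotated base covered NFT1, YKR104W, VBA5 and GEX2. In the interior, the longest stretch, 12916 bp from 534593 to 547508, held YSR3, a sphingolipid phosphatase, and the body of DYN1, the long gene of the dynein heavy chain. A stretch of 9022 bp from 54113 to 63134 lay over the bodies of EAP1 and TOR2 and contained no gene start. The remaining one, 9688 bp from 296747 to 306434, held the starts of STB6, OSI1 and YKL070W, beside the body of LHS1, an endoplasmic reticulum chaperone. The median stretch between peaks was 1483 bp.

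The widest shared regions lay over runs of close starts. The widest spanned 4145 bp from 326420 to 330564 and joined FBA1, the glycolytic aldolase, MPE1, of the mRNA cleavage and polyadenylation complex, and TOA2, the small subunit of TFIIA. Peaks covered 3504 and 3502 bp of it in the HPRT1 YAC libraries, 3507 and 3513 in HPRT1 integrated, 3620 and 3237 in HPRT1R YAC, and 3521 and 3445 in HPRT1R integrated, and 2985 bp were covered in every library. The next, 4034 bp from 338016 to 342049, joined DEF1, MDM35, ASK1 and SFK1, with 1910 bp covered in every library. The others joined GPM1, the phosphoglycerate mutase, with NNR2 and MCR1, then BUD2 with YKL091C and CUE2, and FPT1 with PRY2. A wide region is a union over libraries and is not the width of 1 peak.

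Most of the strongest peaks of chromosome XI lay over the starts of neighbouring genes. The first lay over the genes from 597055 to 603072, which are HBS1, a GTPase that rescues stalled ribosomes, MRPL20, a mitochondrial ribosomal protein, and PRP16, a splicing helicase. Its fold was 4.31 and 4.54 in the HPRT1 YAC libraries, 5.34 and 4.71 in HPRT1 integrated, 3.57 and 4.86 in HPRT1R YAC, and 4.42 and 5.38 in HPRT1R integrated. HPRT1R YAC replicate 1 was the lowest, and the configurations overlapped. The mean was 4.64 ± 0.587 (SD, n = 8), at a mean percentile of 99.9, and the peak was 2044 bp ± 56.6 (SD, n = 8) wide. A summit lay in the 500 bp downstream of the MRPL20 start in 8 libraries, and in the 500 bp downstream of the HBS1 or PRP16 start in none.

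MRPL13, RSC4, of the RSC chromatin remodelling complex, and MEH1, of the vacuolar EGO complex, shared the next peak, with a fold of 4.48 ± 0.479 (SD, n = 8). RPC37, a subunit of RNA polymerase III, had 4.17 ± 0.469 (SD, n = 8), and its peak also reached DBP7 in 3 libraries. SPT23, a membrane-bound activator of the fatty acid desaturase gene, and RAM2, a prenyltransferase subunit, shared a peak of 3.96 ± 0.265 (SD, n = 8). ARC19, of the Arp2/3 complex, and PRP40, of the U1 snRNP, shared one of 3.84 ± 0.483 (SD, n = 8). PAM17, of the mitochondrial import motor, whose region reached no other gene start, had 3.61 ± 0.516 (SD, n = 8), and IRS4, VPS51 and ALY1 shared one of 3.57 ± 0.553 (SD, n = 8). Folds come from lists of unequal depth and were not compared between libraries as a change.

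**Figure D3:**
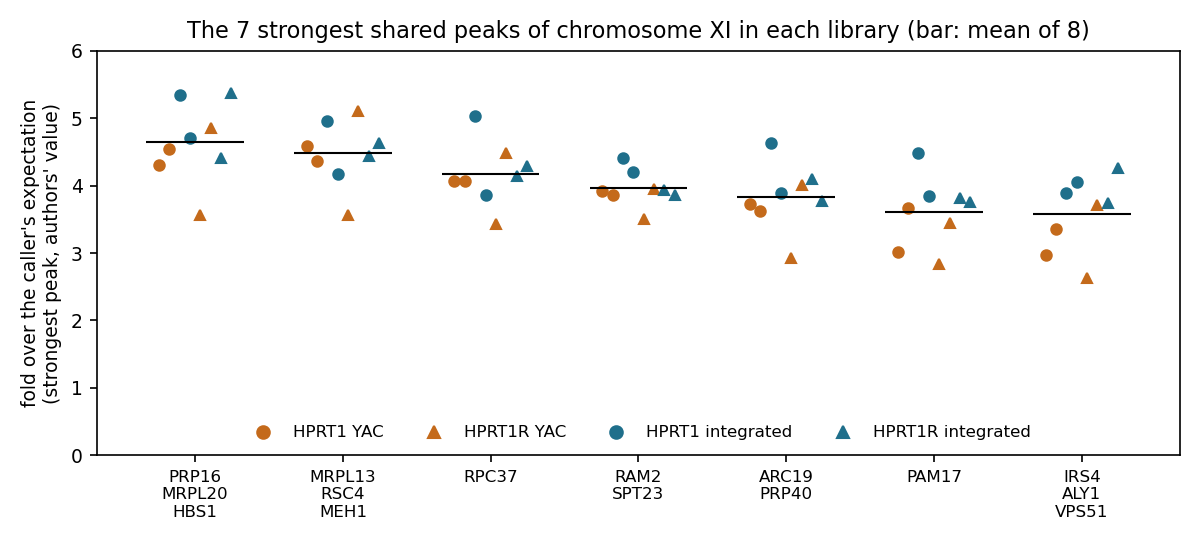
Fold over the caller's expectation, the authors' value, of the strongest peak at the start of each gene group in every library; bars are means of 8. HPRT1R YAC replicate 1 is the lowest point in every group, and the points of both configurations overlap.

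Sorted by function, 90 listed genes of chromosome XI fell into 16 lists, and 65 of them (72.2%) were marked in all 8 libraries, close to the 71.4% of all genes on the chromosome. The lists differed. All 5 cytosolic ribosomal protein genes and all 8 genes listed as mitochondrial ones were marked in all 8 libraries. RPL17A had the strongest peak of the cytosolic ones, 3.28 ± 0.479 (SD, n = 8), then RPL40B with 2.87 ± 0.300 (SD, n = 8), and RPS21A the weakest, 1.94 ± 0.162 (SD, n = 8). MRP8, at 1.58 ± 0.142 (SD, n = 8), was the lowest of the mitochondrial list, which also held MRPL20 and MRPL13 at the top of the chromosome. Despite its name, MRP8 is not established as a mitochondrial ribosomal protein. The median percentile was 57.7 for the cytosolic and 62.5 for the mitochondrial list, beside 66.1 for all genes marked in 8 libraries.

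Of 6 translation factors, 5 were marked in all 8 libraries, and GCN3, of the eIF2B exchange factor, in 7. TMA19, a translation-associated protein, had 3.68 ± 0.701 (SD, n = 8), and TIF1, the helicase eIF4A, 3.13 ± 0.468 (SD, n = 8). All 6 ribosome assembly genes were marked in all 8 libraries, led by UTP11 at 2.99 ± 0.312 (SD, n = 8), as were all 5 genes of RNA polymerase and splicing. The 3 nuclear pore genes were marked in all 8 as well, with NUP133 at 3.22 ± 0.585 (SD, n = 8) and NUP100 at 2.23 ± 0.173 (SD, n = 8).

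Among metabolic genes, 5 of 6 for glycolysis and carbohydrates were marked in all 8. UGP1, which makes UDP-glucose, had a fold of 2.42 ± 0.290 (SD, n = 8), FBA1 2.32 ± 0.254 (SD, n = 8) and GPM1 2.15 ± 0.241 (SD, n = 8). The exception was PCK1, the gluconeogenic enzyme PEP carboxykinase, marked in none. Of 7 genes for respiration and the citric acid cycle, 6 were marked in all 8, led by CYT2, which attaches haem to cytochrome c1, at 2.68 ± 0.408 (SD, n = 8). The remaining one, HAP4, the activator of respiratory genes, was marked in none. A region further upstream of it, from 230957 to 231699, had peaks in 7 libraries. All 7 genes of amino acid and nucleotide synthesis were marked in all 8, with URA6, uridylate kinase, at 3.11 ± 0.400 (SD, n = 8) and TRP3 at 3.09 ± 0.317 (SD, n = 8). The 3 genes of the vacuolar ATPase and proteasome were too.

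Most of the listed genes marked in none fell in 4 lists, beside 12.3% of all genes on the chromosome marked in none. Of 11 transcription regulators, 6 were marked in all 8, led by SPT23 and followed by SET3 and IXR1. MSN4, a stress activator, was marked in 1, and HAP4, BAS1, DAL80, a repressor of nitrogen catabolism, and ASH1, a daughter-cell repressor of mating-type switching, in none. An unmarked start is not always a promoter without a peak. A region upstream of MSN4, from 322439 to 323081, had peaks in all 8 libraries, with a fold of 2.00 ± 0.272 (SD, n = 8). It reached the start window of MSN4 in 1 library only. No cell wall gene of 5 was marked in all 8. CWP1 was marked in 6, PIR3 in 3, and PIR1, CWP2 and FLO10 in none. Of 3 genes listed as nutrient permeases, GAP1, the general amino acid permease, and JEN1, the lactate permease, were marked in none. The other, OAC1, was marked in all 8, but it is a mitochondrial carrier and not a permease of the cell surface. Of 9 genes near the ends, 8 were marked in none and SIR1 in 7.

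Of 5 cell cycle and signalling genes, TOR2, CDC16 and ELM1 were marked in all 8, SDS22 in 5 and HSL1 in 1. Of 4 lipid synthesis genes, ACP1, at 3.26 ± 0.474 (SD, n = 8), and LAC1 were marked in all 8, FAS1 in 7 and MCD4 in 4. The lists were chosen with earlier results of these data known, and no list was tested. Among mating genes, STE6, the exporter of a-factor, was marked in 8 libraries with a fold of 2.58 ± 0.308 (SD, n = 8). STE3, the a-factor receptor of alpha cells, was marked in 1. Both were picked after their values were seen, and 71.4% of genes on the chromosome were marked in all 8. They are therefore no check on the strain's mating type.

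**Figure D4:**
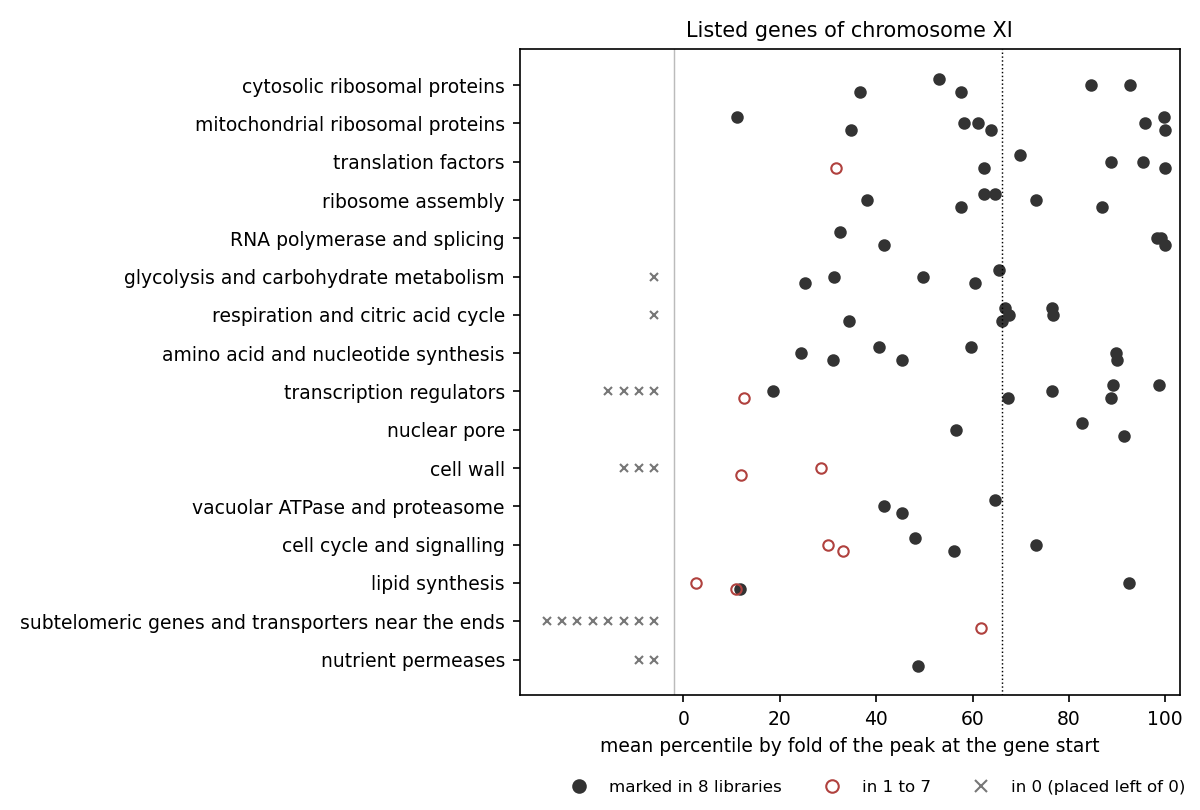
Each listed gene of chromosome XI by the mean percentile, by fold, of the peak at its start among native peaks of the same list. Filled points are genes marked in 8 libraries, open points in 1 to 7, and crosses genes marked in none, placed left of 0. The dotted line is the median of all genes of the chromosome marked in 8, 66.1, and crosses gather in the lists of transcription regulators, cell wall genes and genes near the ends.

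None of the 16 tRNA genes of chromosome XI, which RNA polymerase III transcribes, was overlapped by a peak in any library, beside 98.2% of native tRNA genes overlapped in none and 0.364% in all 8. Of 5 snoRNA genes, SNR64 and SNR69 were overlapped in all 8, beside 18.4% of native snoRNA genes. SNR87 was overlapped in 7, and SNR38 and SNR42 in none, beside 50% overlapped in none natively. The midpoint of SNR64 lies 302 bp from the start of UBA1, so the peak cannot be assigned to 1 of them.

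No summary of chromosome XI passed the test between YAC and integrated libraries. Density was 3.33 ± 0.193 (SD, n = 4) in YAC and 3.29 ± 0.173 (SD, n = 4) in integrated libraries, a difference of 0.0452 (95% interval -0.450 to 0.375; exact permutation test, p = 0.686, adjusted p = 0.800). Coverage was 23.1, 25.6, 24.3 and 24.5% in the 4 YAC libraries and 26.1, 26.4, 25.0 and 25.6% in the 4 integrated ones. The means were 24.4% ± 1.01 (SD, n = 4) and 25.8% ± 0.635 (SD, n = 4), with the difference, YAC minus integrated, -1.37 points (95% interval -3.26 to 0.621; exact permutation test, p = 0.0857, adjusted p = 0.188). HPRT1 YAC replicate 2 lay within the integrated range, so the groups overlapped. Median width differed by -33.1 bp (95% interval -143 to 90.0; exact permutation test, p = 0.400, adjusted p = 0.560), and the share of marked genes by -0.393 points (95% interval -4.70 to 2.81; exact permutation test, p = 0.857, adjusted p = 0.923). The width difference rested in part on HPRT1 YAC replicate 1, without which it was -8.92 bp, and without HPRT1R YAC replicate 1 it was -55.2 bp. With 4 against 4 libraries the smallest p is 0.0286.

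Lower coverage in YAC libraries was not particular to chromosome XI. On the other chromosomes it was 23.3% ± 0.688 (SD, n = 4) in YAC and 25.1% ± 0.853 (SD, n = 4) in integrated libraries, which was not tested. Set against the other chromosomes of the same library, chromosome XI gave no difference between configurations that passed the test. The excess in density was 0.223 ± 0.0372 (SD, n = 4) in YAC and 0.171 ± 0.0495 (SD, n = 4) in integrated libraries, a difference of 0.0516 (95% interval -0.0556 to 0.140; exact permutation test, p = 0.171, adjusted p = 0.300). The excess in coverage was 1.06 ± 0.549 (SD, n = 4) and 0.659 ± 0.247 (SD, n = 4) points, a difference of 0.404 (95% interval -0.580 to 1.13; exact permutation test, p = 0.257, adjusted p = 0.400). Without HPRT1 YAC replicate 1 this was 0.648 (exact permutation test, p = 0.0286, adjusted p = 0.0667), and without HPRT1R YAC replicate 1 it was 0.233. No difference between the sequences passed the test. Density was 3.31 in both, with a difference of 0 (95% interval -0.405 to 0.421; exact permutation test, p = 1), and coverage differed by -0.471 points, HPRT1R minus HPRT1 (95% interval -2.04 to 2.42; exact permutation test, p = 0.600, adjusted p = 0.764). Without HPRT1 YAC replicate 1 the coverage difference was -1.20 points (exact permutation test, p = 0.0571, adjusted p = 0.114).

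Most peaks recurred in any other library. Of the chromosome XI peaks of 1 library, 94.8% ± 2.32 (SD over 8 ordered pairs) overlapped a peak of the other library of its group. Between libraries that shared neither configuration nor sequence the value was 93.7% ± 1.55 (SD over 16 ordered pairs). Pairs share libraries and were not tested. No gene was marked in all 4 integrated and no YAC library, beside 0.3% of native genes, or in all 4 YAC and no integrated library, beside 0.15%. Other marking rules gave up to 3 and 2 such genes.

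The region that separated the configurations lay beside PIR3, a cell wall protein with internal repeats, in a gap without annotated genes. It ran from 145824 to 146210, 387 bp long, 445 bp past the end of PIR3 and 2628 bp from the 5′ end of YKL162C. A peak covered 372 and 362 bp of it in the HPRT1 integrated libraries and 214 and 360 bp in the HPRT1R integrated ones, with folds of 2.81, 2.84, 2.02 and 2.22. None of the 4 YAC libraries had a peak there. The integrated peaks had −log10 q values between 14.3 and 38.2 and a mean fold percentile of 60.3. It was 1 region of 219, or 0.457%, beside 0.552% of regions of the native genome. No region had a peak in all 4 YAC and no integrated library, beside 0.21%. The share of such regions on chromosome XI was near the background. The insertion site is not given, so the place of this region relative to it is unknown. Configuration and medium changed together here too, so a part of either in this difference cannot be told apart.

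Around it, PIR3 itself was marked in 3 integrated libraries and no YAC library, but not by the same peak. In both HPRT1R integrated libraries a peak of 695 and 771 bp lay over its body, with folds of 1.70 and 1.71. In HPRT1 integrated replicate 1 a peak upstream of the gene, from 143690 to 144218, reached only the edge of the start window. Its fold was 1.40. That peak belongs to an upstream region, from 143237 to 144218, which had peaks in all 8 libraries. PIR3 and its neighbour PIR1 are related in sequence, so reads may be shared between them.

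**Figure D5:**
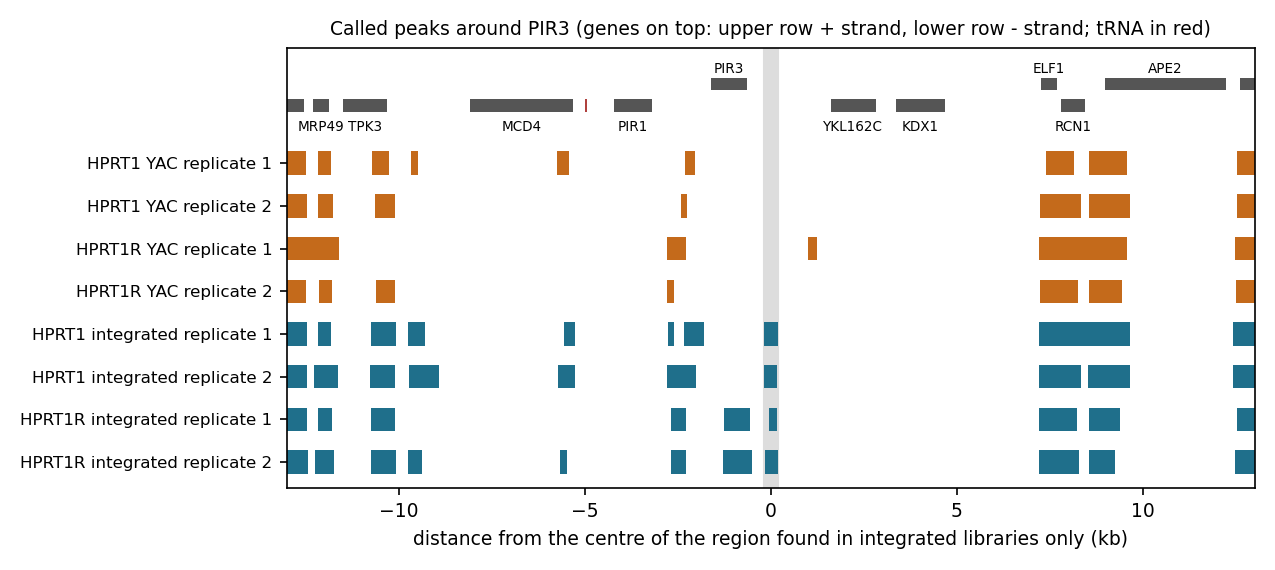
Called peaks (bars) in each library around the region beside PIR3, by distance from the centre of that region (kb), with annotated genes on top. The grey band marks the region, which has a bar in the 4 integrated libraries and none in the 4 YAC libraries; bars at the starts of ELF1 and APE2 recur in all 8.

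In 10 kb windows, all 4 integrated libraries lay above all 4 YAC libraries in 5 of 67 windows of chromosome XI, or 7.46%, beside 11.5% of all native windows, and the reverse held in 0, beside 0.412%. The window from 140 to 150 kb, which holds PIR1 and PIR3, had coverage of 5.76, 1.70, 7.58 and 1.79% in the YAC libraries and 13.7, 15.9, 13.1 and 17.4% in the integrated ones. Its difference of 10.8 points ranked 4th among 1214 native windows. The window from 350 to 360 kb ranked 7th, with means of 15.5 and 26.0%. Within it, peaks at MMO1 and PHD1, an activator of filamentous growth, covered 1085, 1082, 1030 and 1186 bp in YAC and 1595, 1524, 1755 and 1608 bp in integrated libraries. These ranges did not overlap, although PHD1 itself was marked in all 8. The share of native regions whose covered bases separate in this way was not computed, so the separation is not read as particular to this region.

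The window from 450 to 460 kb stood at 18.7% in YAC and 26.2% in integrated libraries. There a region inside FOX2, a peroxisomal enzyme of fatty acid β-oxidation, from 454536 to 455571, was covered over 0, 0, 0 and 206 bp in YAC and 1036, 754, 862 and 599 bp in integrated libraries. It lies in the body of the gene, and the start of FOX2 was marked in none. The remaining windows of this kind, from 130 to 140 and from 280 to 290 kb, ranked 63rd and 256th. These windows were picked out by their own difference, and no test was run on them. In the opposite direction, the start of SDS22, a regulator of protein phosphatase Glc7, was marked in 4 YAC libraries and 1 integrated library. A region in the body of PCK1, from 632102 to 632414, had peaks in 3 YAC libraries and no integrated library.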

How the data were processed

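H3K4me3 was measured by CUT&RUN in 8 libraries. The submitters' processing notes list MACS2 2.1.0, Bowtie2 2.2.9, SAMtools 1.9, bcl2fastq 2.20, deepTools 3.5.0 and sacCer3. Peak calling was per library as far as the labels tell, and the sources used here give neither its settings nor its control. The authors deposited, per peak, a fold (ratio) over expectation, p and q values as −log10, a score and a summit offset, used only within a list. Pileups were solved from fold and p; at least 99.7% of peaks matched within 0.001 in −log10 p. Genes came from RefSeq assembly R64, with strand read from systematic names.

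Paired values of a library were compared with exact sign-flip permutation tests, and 4 against 4 libraries with exact permutation tests of means, with Benjamini-Hochberg adjustment over 14 tests and 95% intervals from inverting the tests. The code was tested on simulated data. Analyses used Python 3.11.15, numpy 2.4.6, pandas 2.3.3 and scipy 1.17.1. Alternatives were a −log10 q of at least 5, equal numbers of native peaks (3377 per list), each library left out, other marking rules, the median chromosome, and no outer 30 kb. Correlations between same-numbered libraries over 6002 genes had no common sign, and numbers were not taken as pairs in the main tests.

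The members, lists and tests were chosen with earlier results of these data known. Genes named were the 10 with the strongest shared peaks, those split by configuration, the up to 3 highest and all incompletely marked members of each list, those in the 5 longest peak-free stretches and 5 widest regions, and those at the ends and centromere. STE6, STE3, the genes of the differing windows and the noncoding genes were named after their values were seen.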

Additional observations from a re-analysis of the deposited data

Results flagged for a closer look

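Among 16 groups of 4 libraries that were checked for a library far from the others, 1 stood out: the peak density of chromosome XI in HPRT1R YAC replicate 1 was 3.05 peaks per 10 kb, while the other 3 YAC libraries lay between 3.39 and 3.45. Chance flags about 1 in 20 such groups. This library also had the fewest native peaks, the lowest density on the other chromosomes (2.79), the highest expected pileup (98.9 reads) and 5 of the 11 single-library regions of chromosome XI. Their part in its low density was not tested. Its share of marked genes on chromosome XI, 82.4%, lay within the range of the others.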

How the results depend on the processing

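The differences in density, coverage and marked share between chromosome XI and the others, and those of ends and arms, kept their direction and their side of the threshold under every alternative run. Leaving out each library gave 0.189 to 0.209 peaks per 10 kb, 0.759 to 0.937 points of coverage and 4.36 to 4.94 points of marked share (exact permutation tests, adjusted p at most 0.0438). YAC minus integrated changed sign for density at a −log10 q of at least 5 (-0.0565; range when leaving out each library -0.0251 to 0.141) and for marked share with the summit rule (0.865; leaving out each library -1.13 to 0.655, turning positive without HPRT1 YAC replicate 1). Neither passed the test in any of these. The cause was not tested. Leaving out each library gave a YAC minus integrated width of -55.2 to -8.92 bp, an excess coverage of 0.233 to 0.648 points, and an HPRT1R minus HPRT1 coverage of -1.20 to -0.108 points, with none past the threshold after adjustment.

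Counts of genes depended on the marking rule. With a summit required within 500 bp after the start, 54 genes counted as marked in all 8 libraries and 97 as marked in none. With at least 50% of the window under peaks, 70 counted as marked in none. Genes marked in all integrated and no YAC libraries then numbered 3 (MMO1, PHD1 and VPS501). Genes marked in all YAC and no integrated libraries numbered 2 (KTI12 and BET3) with the summit rule. Leaving out each library gave 227 to 235 genes in all, 39 to 41 in none, and 0 to 1 for either split (PRI2 without HPRT1 integrated replicate 1, PIR3 without HPRT1 integrated replicate 2, AIM29 without HPRT1 YAC replicate 1, SDS22 without HPRT1 integrated replicate 2). The summit rule changed the library count of 43 of 94 named genes by more than 1. The region beside PIR3 kept 4 and 0 libraries at a −log10 q of at least 5 and with equal numbers of peaks. Arms without the ends, counts with libraries left out or equal peaks, and the PIR3 region were alternatives added after seeing the data.

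With a replicate block the coverage difference between configurations stayed at -1.37 points with p = 0.111 (adjusted p = 0.222, exact permutation test; smallest possible 0.0556), and no call changed. Same-number correlations ran from -0.176 to 0.135. They cannot show whether same-numbered libraries shared a source, which the labels do not give. Where a library has no peak its depth is unknown, and absence of a call is not absence of the mark.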
